A study of Mus musculus with 16 samples.

Results

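Messenger RNAs of cytokines and other inflammatory proteins are short-lived, and 3 families of RNA-binding proteins do much of their removal. The 8 genes described here encode those proteins and 1 partner: Zfp36 (tristetraprolin), Zfp36l1 and Zfp36l2 of the tristetraprolin family, Zc3h12a and Zc3h12d of the Regnase family, Rc3h1 and Rc3h2 (Roquin-1 and Roquin-2), and Btg1, an antiproliferative protein that binds the deadenylase complex. They were chosen by name, as families with a shared function and with earlier results of these data known, and are 8 of the 53465 genes in the count table. The cells sequenced in bulk were group 2 innate lymphoid cells (ILC2), tissue-resident lymphocytes that make type 2 cytokines, sorted from the duodenum of untreated C57BL/6 mice of 6 to 10 weeks held free of specific pathogens.

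The 16 libraries fell into 4 genotypes of 4. Every mouse was Il13 smart13/smart13, a reporter allele at the Il13 locus. WT mice carried that allele alone, Alox5 KO mice were Alox5 -/- beside it, Il25 KO mice were Il25 -/- with Arg1 Yarg/Yarg (a reporter at Arg1), and St2 KO mice were St2 -/- with Arg1 Yarg/Yarg. The Il25 KO and St2 KO groups thus differ from WT and Alox5 KO by the Arg1 allele too, and only Il25 KO against St2 KO, and Alox5 KO against WT, compare mice of the same reporter alleles. All 3 deletions are of the whole animal and not of ILC2 alone. Alox5 encodes the enzyme that starts leukotriene synthesis, Il25 a cytokine of epithelial tuft cells, and St2 (Il1rl1) the receptor for IL-33, so the design asks what each signal contributes to resting intestinal ILC2.

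Tristetraprolin family proteins bind AU-rich elements in the 3′ untranslated region and recruit the CCR4-NOT complex, which removes the poly(A) tail. Regnase-1, the product of Zc3h12a, is an endonuclease that cuts stem-loops in such regions, and the Roquins bind similar stem-loops and also recruit CCR4-NOT. Zfp36 and Zc3h12a are known as fast-response genes that stimulated immune cells induce together with the cytokine mRNAs they destroy, and tristetraprolin is known to act on its own mRNA. In lymphocytes these proteins are textbook restraints on cytokine output and activation.

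The sequences below show what the tristetraprolin family reads and where the genes that differed most start. TATTTAT, the DNA form of the family's core recognition sequence, was counted on the sense strand of 3′ untranslated regions in GENCODE transcripts (release M21, GRCm38, for each gene the basic transcript with the longest such region). It occurred 3 times in Zfp36, Zfp36l1, Zfp36l2 and Rc3h2, 2 times in Rc3h1, and had no match in Zc3h12a, Zc3h12d or Btg1. That is 62.5% of the 8 genes, against 30.5% of tested protein-coding genes and 27.6% of all, and these regions were longer in the 8 genes (median 2081 bases) than over the tested genes (median 1173.5). The next 3 lines give 30-base stretches with the heptamers in capitals, 5′ to 3′ on the gene's strand: from Zfp36 itself (chr7:28376958-28376987, minus strand), from the cytokine gene Csf2 (chr11:54247325-54247354, minus strand) and from the prostaglandin synthase gene Ptgs2 (chr1:150105789-150105818, plus strand), both genes whose transcripts are described further on.
Zfp36 site: ccttTATTTATgacgacttTATTTATtgta
Csf2 site: taaaTATTTATTTATTTATTTATTTATttt
Ptgs2 site: actgaccaTATTTATTTATTTATgtgaaga
The Csf2 stretch holds 5 overlapping heptamers, the Ptgs2 stretch 3, and the Zfp36 stretch 2 that do not overlap. A match is a description of the letters and not a measured binding site.

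Promoters were taken from RefSeq (build GRCm38.p6), which matched 7 of the 8 genes, all but Zfp36l2. Windows of 300 bases, 250 before and 50 after the start, were searched on both strands for the NF-kB consensus and the CArG box of serum response factor (both used by name), AP-1 (TGANTCA), CRE (TGACGTCA) and EGR (GCGNGGGCG), the elements of stimulus-induced genes. The following 3 lines print the 250 bases before the start with matches in capitals, for the 2 genes that differed between genotypes and for Zfp36l1, a close relative of Zfp36 that did not pass the test in any comparison: Zfp36 (chr7:28379229-28379478, minus strand), Zc3h12a (chr4:125127882-125128131, minus strand) and Zfp36l1 (chr12:80113014-80113263, minus strand).
Zfp36 promoter: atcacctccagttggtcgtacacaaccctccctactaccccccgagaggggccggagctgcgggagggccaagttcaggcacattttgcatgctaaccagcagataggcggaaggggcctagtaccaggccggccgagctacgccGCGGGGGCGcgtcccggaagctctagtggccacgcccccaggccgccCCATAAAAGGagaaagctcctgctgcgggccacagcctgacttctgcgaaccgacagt
Zc3h12a promoter: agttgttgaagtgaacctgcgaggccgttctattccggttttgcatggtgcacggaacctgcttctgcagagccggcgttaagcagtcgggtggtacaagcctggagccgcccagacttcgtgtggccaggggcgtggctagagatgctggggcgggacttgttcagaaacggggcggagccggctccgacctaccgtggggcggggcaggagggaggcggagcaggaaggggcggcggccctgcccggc
Zfp36l1 promoter: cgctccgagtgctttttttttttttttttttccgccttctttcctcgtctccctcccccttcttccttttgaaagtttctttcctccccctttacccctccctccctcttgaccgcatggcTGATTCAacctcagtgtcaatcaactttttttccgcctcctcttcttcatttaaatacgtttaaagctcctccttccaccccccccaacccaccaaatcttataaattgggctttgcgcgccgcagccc
The Zfp36 window had a CArG box 58 bases and an EGR match 105 bases before the start. Of 32851 promoter windows of this length, 1.63% held a CArG box and 5.55% the EGR sequence. The Zfp36l1 window had an AP-1 match 129 bases before the start and the Rc3h1 window had one 133 bases before it, a sequence present in 7.81% of windows. The Zc3h12a window had none of the 5 motifs, and no window of the 7 genes held the NF-kB consensus (4.51% of all windows) or the CRE (1.79%).

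The 8 genes lie on 7 chromosomes of GRCm38 by the GENCODE annotation: Zfp36 (ENSMUSG00000044786) at chromosome 7, 28376784 to 28380253, Zfp36l1 at chromosome 12, 80107754 to 80113013, Zfp36l2 at chromosome 17, 84183931 to 84187947, and Zc3h12a (ENSMUSG00000042677) at chromosome 4, 125118423 to 125127840, all on the minus strand. Rc3h2 is at chromosome 2, 37370069 to 37422903, also on the minus strand. On the plus strand are Rc3h1 at chromosome 1, 160906418 to 160974978, and on chromosome 10 both Zc3h12d, 7832470 to 7870396, and Btg1, 96617006 to 96622809.

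Total gene counts ranged from 2086864 to 3216937 per library, and 7 of the 8 genes had counts enough to be tested. Alox5 was at 9.84 ± 3.39 CPM (counts scaled to the same library total) in Alox5 KO and 96.2 ± 32.8 CPM in WT (SD, n = 4), Il25 had 0 counts in every library, and Il1rl1 was at 173 ± 37.6 CPM in St2 KO and 216 ± 34.7 CPM in WT. Counts of Il1rl1 cover the whole gene, and the sources used here do not say which exons the St2 allele lacks, so they do not check that label. The sample codes, whose letters are not explained, form 3 sets that the model carried as a term. TS is replicates 1 and 2 of each genotype. Replicates 3 and 4 are TT in the WT and Alox5 KO groups and TY in the Il25 KO and St2 KO groups. Xist had 982 to 1682 counts in the 4 TY libraries and at most 7 in the other 12, and Ddx3y at most 2 and at least 709, so the TY libraries were read as female and the rest as male. All 17 ILC2 marker genes had counts and summed to between 7424 and 10206 CPM per library. B and plasma cell transcripts summed to between 991 and 3075 CPM and were lowest in Alox5 KO 1, Alox5 KO 2 and St2 KO 1. In such bulk samples fewer cells making a transcript and less transcript per cell cannot be told apart. Nothing in the labels ties each library to a mouse of its own, and the spread that p-values rest on may be partly technical.

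Zfp36 was the member that set St2 KO apart. Its level (CPM from the column totals throughout) was 550.4, 504.8, 460.3 and 545.5 in the 4 WT libraries. In Alox5 KO it was 435.6, 465.3, 568.7 and 489.3, and in Il25 KO 522.1, 527.9, 540.5 and 515.9. In St2 KO it was 68.8, 129.0, 94.6 and 114.2. The 12 libraries of the other genotypes overlapped among themselves between 435.6 and 568.7, and all 4 St2 KO libraries lay far under them with no overlap. The means were 515.2 ± 42.0 in WT, 489.7 ± 57.1 in Alox5 KO, 526.6 ± 10.5 in Il25 KO and 101.7 ± 26.0 in St2 KO (SD, n = 4), so St2 KO held 19.7% of the WT mean. The counts behind these values were 204 to 415 per St2 KO library and 1021 to 1449 in the other 12.

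**Figure D1:**
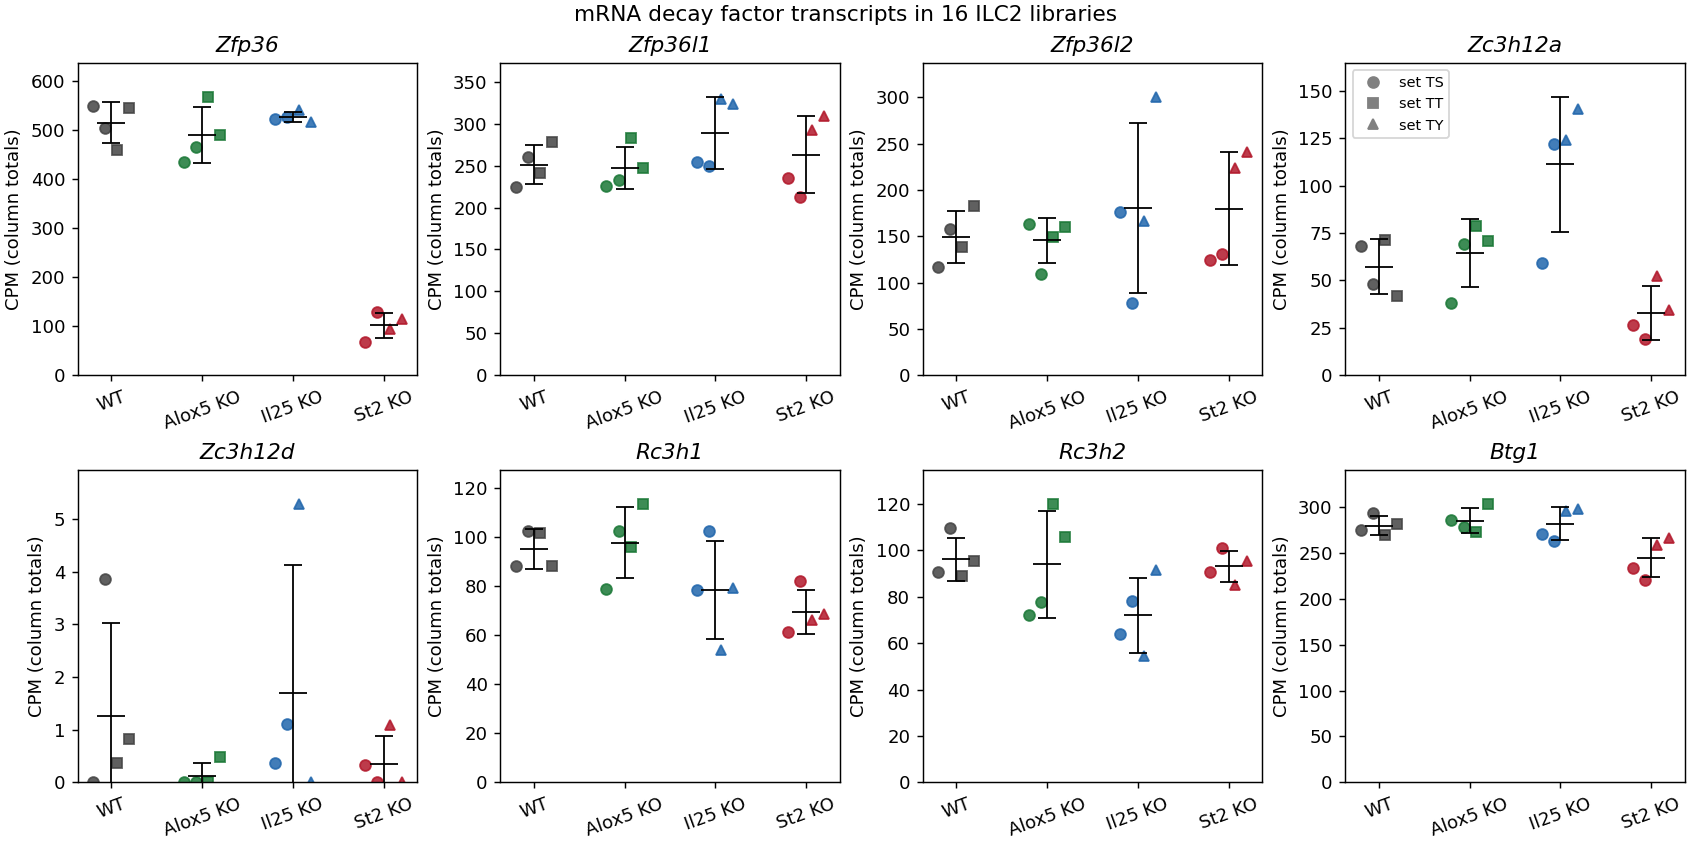
Level of each of the 8 genes by genotype, in CPM from the column totals. Each point is 1 library (circle TS, square TT, triangle TY) and black bars show the mean and SD of 4 libraries, drawn down to 0 where they would pass under it. Zfp36 in St2 KO lies between 68.8 and 129.0 CPM and the other 12 libraries between 435.6 and 568.7 CPM. Zfp36l1, Zfp36l2, Zc3h12a, Zc3h12d and Rc3h2 overlap between St2 KO and WT.

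Of the 7 tested members, Zfp36 alone passed in St2 KO against WT, with a log2 fold change of -2.33 ± 0.157 (SE) and an adjusted p of 8.179e-08 from edgeR's quasi-likelihood test over 11742 genes. In that comparison 0.298% of all tested genes passed and 0.187% passed as lower. Il25 KO against St2 KO, the comparison with the same reporter alleles on both sides, gave 2.41 ± 0.133 (adjusted p 2.393e-09). Alox5 KO against St2 KO gave 2.26 ± 0.159 (adjusted p 1.076e-07), in which 0.485% of genes passed and 0.307% as higher. These 3 comparisons share the St2 KO libraries and are not independent of each other. The other 3 differences of Zfp36 were small: -0.06 ± 0.116 for Alox5 KO against WT, 0.09 ± 0.142 for Il25 KO against WT and -0.15 ± 0.145 for Alox5 KO against Il25 KO, with 95% intervals of -0.31 to 0.18, -0.21 to 0.39 and -0.45 to 0.15.

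The fall of Zfp36 in St2 KO was as large within TS and, against Il25 KO, within TY, the sets that hold St2 KO libraries. Within TS, which holds only libraries read as male, St2 KO against WT gave -2.43 ± 0.188. Il25 KO against St2 KO gave 2.45 ± 0.187 within TS and 2.37 ± 0.189 within TY, which holds only libraries read as female. The difference between those sets was 0.08 ± 0.271 on the log2 scale, and no gene of the 11742 passed the test of such a difference with edgeR (4.87% had an unadjusted p under 0.05). For Alox5 KO against WT the difference of Zfp36 between TS and TT was -0.32 ± 0.231, and again no gene passed (4.04% under an unadjusted 0.05). WT and St2 KO share no second set, so their difference rests on TS and on the set term.

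Zfp36l1 and Zfp36l2, the relatives of Zfp36 that bind the same element and are known for roles in lymphocyte development and quiescence, did not pass in any comparison. Zfp36l1 was at 224.4, 259.9, 241.2 and 278.7 CPM in WT and at 235.4, 212.9, 292.6 and 309.6 in St2 KO. Alox5 KO had 226.1, 232.6, 282.4 and 246.8, and Il25 KO 254.4, 249.5, 329.5 and 323.3. All 4 genotypes overlapped, and the 4 TY libraries were the highest 4 of the 16. St2 KO against WT was -0.08 ± 0.102 on the log2 scale with a 95% interval of -0.30 to 0.13, which leaves out a change of the size seen for Zfp36. Without the set term it was 0.056, and the mean CPM was 262.6 in St2 KO and 251.1 in WT.

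Zfp36l2 varied more between libraries of the same genotype. It was at 116.6, 158.1, 138.9 and 182.6 CPM in WT and at 163.2, 109.7, 149.1 and 159.6 in Alox5 KO. Il25 KO spanned 78.1 to 300.7 (176.6, 78.1, 166.6 and 300.7) and St2 KO had 124.8, 130.6, 223.2 and 240.8. The difference of St2 KO from WT was -0.13 ± 0.248 with the set term in the model and 0.26 without it. The mean CPM was 179.8 in St2 KO and 149.1 in WT. Il25 KO against St2 KO was 0.05 ± 0.192 with an interval of -0.35 to 0.45. Exons of an antisense or non-coding gene overlap each tristetraprolin family gene on the opposite strand: Gm44710 at Zfp36 had 0 counts, Gm26669 at Zfp36l1 had 489 in all libraries together, and AC132455.1 at Zfp36l2 was not among the counted genes. The library kit does not mark strand, so reads of such pairs cannot be told apart.

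Zc3h12a, which encodes Regnase-1, was highest in Il25 KO and lowest in St2 KO. Its 4 libraries gave 68.0, 48.2, 71.1 and 41.7 CPM in WT and 38.2, 69.2, 78.9 and 70.9 in Alox5 KO. Il25 KO gave 59.5, 121.8, 123.8 and 140.5, and St2 KO 26.3, 19.3, 52.2 and 34.4. Every Il25 KO library lay above every St2 KO library, while WT overlapped with both. The means were 57.2 ± 14.5 in WT, 64.3 ± 17.9 in Alox5 KO, 111.4 ± 35.6 in Il25 KO and 33.1 ± 14.2 in St2 KO. Il25 KO was thus 3.37 times St2 KO.

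With Zfp36, Zc3h12a made 2 of 7 tested members that passed in Il25 KO against St2 KO, where 1.24% of tested genes passed, 0.852% as higher and 0.392% as lower. The log2 fold change of Zc3h12a was 1.82 ± 0.259 (95% interval 1.28 to 2.36, adjusted p 0.0005082, edgeR), and it was 2.05 ± 0.405 within TS and 1.65 ± 0.347 within TY. Neither genotype passed against WT: Il25 KO was at 0.74 ± 0.310 (adjusted p 0.4562) and St2 KO was at -1.08 ± 0.352 (adjusted p 0.3937), so the difference that passed lies between 2 genotypes on either side of WT. Alox5 KO against St2 KO, at 1.25 ± 0.351, missed the threshold in edgeR (adjusted p 0.1876) and passed in DESeq2 (adjusted p 0.02474) and without Il25 KO replicate 2 (adjusted p 0.03069). Alox5 KO against WT was 0.17 ± 0.265 and Alox5 KO against Il25 KO -0.57 ± 0.309. With the 8 TS libraries fitted alone, the adjusted p of Il25 KO against St2 KO was 0.1597.

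Against WT, St2 KO held 57.7% of the WT mean of Zc3h12a and 19.7% of that of Zfp36. Zc3h12d, the Regnase of lymphocytes that is also called TFL, was close to undetected. It had 35 counts in all, in 9 of 16 libraries, with at most 5.29 CPM, and it was filtered out before testing.

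**Figure D2:**
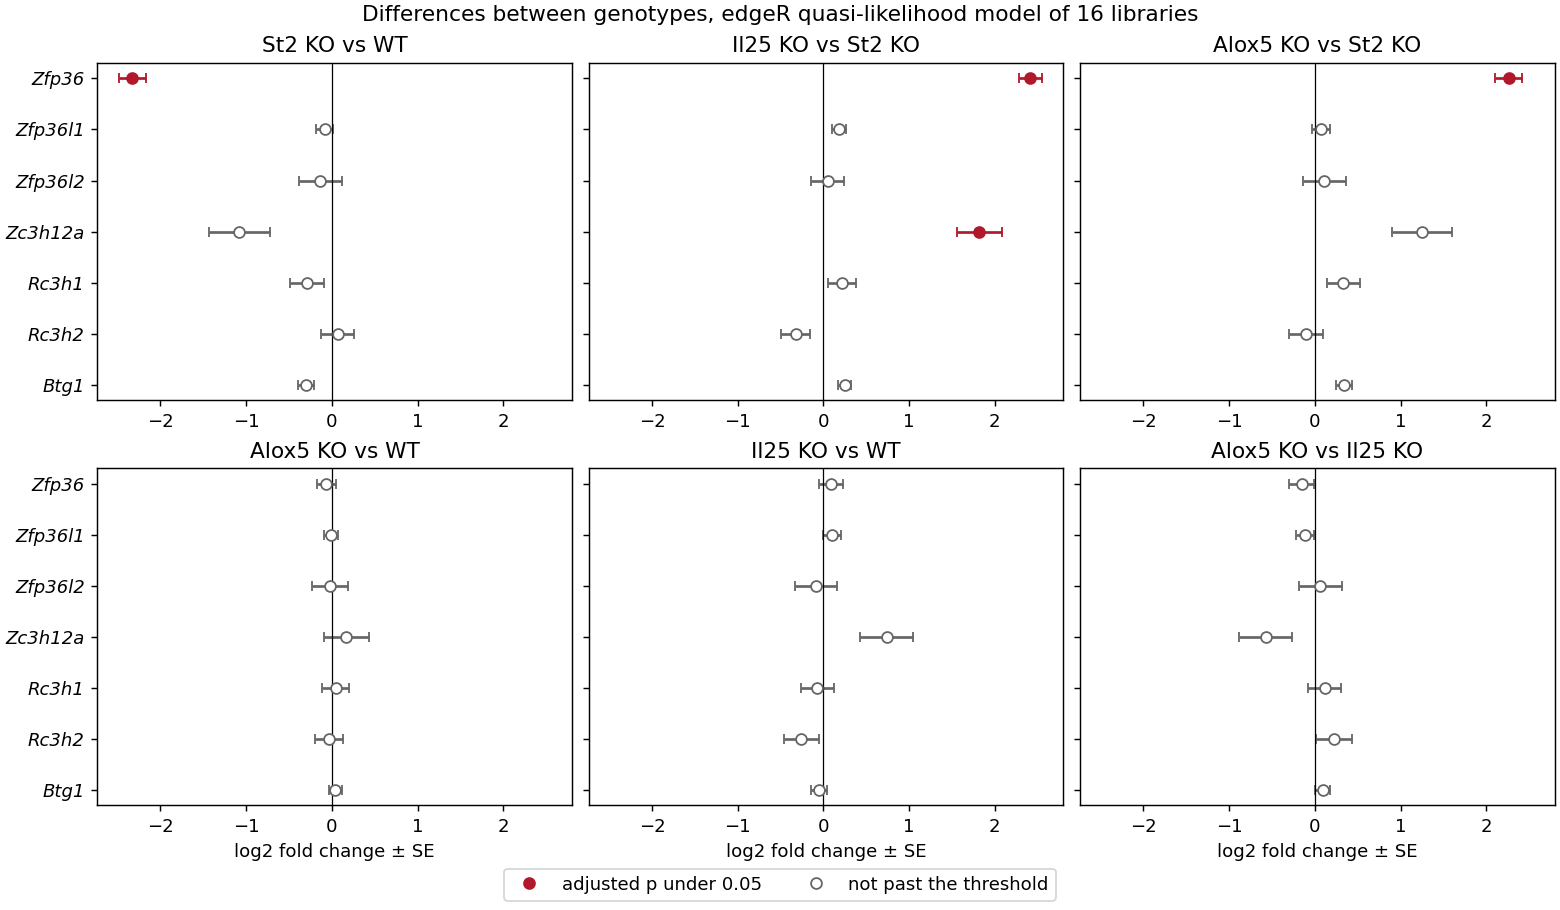
Log2 fold change with its SE for the 7 tested genes in the 6 comparisons, from the edgeR model of 16 libraries. Filled red points have an adjusted p under 0.05: Zfp36 in the 3 comparisons with St2 KO and Zc3h12a in Il25 KO against St2 KO, at 1.82.

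The Roquin genes did not pass in any comparison. Rc3h1, known for the sanroque mutation that releases follicular helper T cells, was at 88.1, 102.6, 101.6 and 88.3 CPM in WT and 61.4, 82.1, 66.1 and 68.5 in St2 KO. Those groups did not overlap, yet the modelled difference was -0.29 ± 0.195 with an adjusted p of 0.7929. Alox5 KO had 78.8, 102.4, 96.0 and 113.6 CPM, and Il25 KO 78.2, 102.4, 53.8 and 79.0, so both overlapped with St2 KO. Rc3h2, its partly redundant paralogue, was at 90.8, 109.5, 88.8 and 95.6 CPM in WT and 90.7, 101.0, 85.1 and 95.6 in St2 KO, a difference of 0.07 ± 0.197. Its Alox5 KO libraries gave 72.1, 77.7, 120.2 and 105.9 CPM and its Il25 KO libraries 63.8, 78.1, 54.6 and 91.6. Il25 KO against St2 KO was -0.32 ± 0.167 for Rc3h2 and 0.22 ± 0.165 for Rc3h1, neither past the threshold.

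Btg1, a deadenylation partner tied to the resting state of lymphocytes, was at 274.6, 293.1, 269.1 and 281.9 CPM in WT and at 286.3, 277.8, 272.5 and 303.8 in Alox5 KO. Il25 KO had 270.6, 263.4, 296.1 and 298.2, and St2 KO 234.0, 220.7, 258.6 and 266.3. The St2 KO libraries lay under every WT and every Alox5 KO library and overlapped with Il25 KO. The differences were small: -0.30 ± 0.091 for St2 KO against WT (adjusted p 0.3194, edgeR), 0.25 ± 0.074 for Il25 KO against St2 KO (adjusted p 0.1394) and 0.34 ± 0.092 for Alox5 KO against St2 KO (adjusted p 0.1615). DESeq2 gave adjusted p-values of 0.04382 and 0.04587 for the comparisons with Il25 KO and Alox5 KO. Depth moved with this result: St2 KO libraries had the larger totals (2737714 to 3216937, against 2447504 to 2657153 in WT), and the unscaled Btg1 counts were 694 to 774 in St2 KO and 690 to 760 in WT. The part of depth in the Btg1 difference was not tested.

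Groups that do not overlap were read against all genes. Zfp36, Rc3h1 and Btg1 were lower in all 4 St2 KO libraries than in any WT library, as were 4.84% of tested genes. Zfp36 and Zc3h12a were higher in every Il25 KO than in any St2 KO library (2.62% of genes), and Zfp36 and Btg1 in every Alox5 KO than in any St2 KO library (5.1%). In the 3 comparisons without St2 KO no member passed with edgeR or DESeq2. There 0.102% of genes passed for Alox5 KO against WT, 0.417% for Il25 KO against WT and 0.392% for Alox5 KO against Il25 KO. At an unadjusted p under 0.05 the members counted 0, 1 (Zc3h12a) and 0.

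Between genes, levels were compared per length, as CPM per kilobase of all annotated exons, which for Zfp36 is the whole 3470 bases of the gene. In WT the order was Zfp36 (148.5 ± 12.1 CPM per kilobase), Zfp36l1 (84.0 ± 7.83), Btg1 (53.0 ± 1.96), Zfp36l2 (42.2 ± 7.95), Zc3h12a (19.9 ± 5.04), Rc3h1 (8.41 ± 0.712), Rc3h2 (4.90 ± 0.476) and Zc3h12d (0.309 ± 0.430). Of neighbours in that order, the libraries of Btg1 and Zfp36l2 overlapped and those of every other pair did not. In St2 KO the order changed at the top. Zfp36l1 came first (87.8 ± 15.3), then Zfp36l2 (50.9 ± 17.2) and Btg1 (46.4 ± 4.02), whose libraries overlapped. By its mean Zfp36 (29.3 ± 7.51) fell to the fourth place, above Zc3h12a (11.5 ± 4.93). The St2 KO libraries of Zfp36 (up to 37.2) also overlapped with those of Zfp36l2 (from 35.3).

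Among the 3 tristetraprolin family genes, Zfp36 gave 54.1% ± 3.57 of the summed level per kilobase in WT, 53.2% ± 2.02 in Alox5 KO and 51.2% ± 6.47 in Il25 KO (SD, n = 4). In St2 KO it gave 17.7% ± 5.27, and Zfp36l1 gave 52.6% ± 4.32. The 8 genes together summed to 361.2 ± 17.3 CPM per kilobase in WT, 354.7 ± 31.8 in Alox5 KO, 402.7 ± 45.7 in Il25 KO and 236.9 ± 40.9 in St2 KO. Without Zfp36 the 7 others summed to 212.7 ± 12.9, 213.6 ± 16.6, 251.0 ± 46.4 and 207.7 ± 39.8, ranges that overlap between St2 KO and each of the others.

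**Figure D3:**
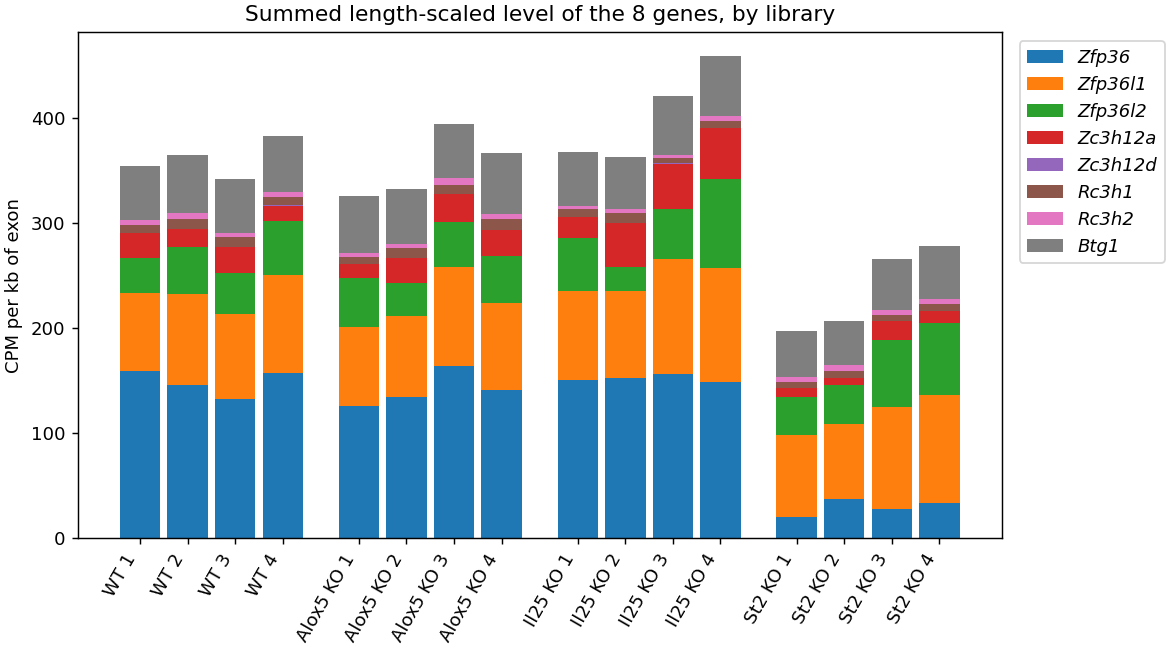
Level per kilobase of exon (CPM per kb) of the 8 genes, stacked for each of the 16 libraries. The blue Zfp36 segment is short in the 4 St2 KO libraries, whose totals run from 197.5 to 278.0 CPM per kilobase, against 325.6 to 458.9 in the other 12.

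The machinery that these proteins recruit and their other partners were read from a list of 44 genes, of which 42 were tested: CCR4-NOT and PAN2-PAN3 deadenylases, decapping factors, the exonuclease Xrn1, BTG and TOB proteins, the stabiliser Elavl1 and the Regnase antagonist Arid5a among them. In St2 KO against WT the median log2 fold change was 0.03, against 0.01 over all tested genes. Of the 42, 1 passed, as lower (0.187% of all tested genes did). The gene was Btg2, a stimulus-induced relative of Btg1, at -0.69 ± 0.120 (adjusted p 0.009232), from 775.5 ± 87.6 CPM in WT to 487.1 ± 28.4 in St2 KO. Btg2 also fell in Alox5 KO against WT (-0.58 ± 0.099, adjusted p 0.01886, edgeR), where Zfp36 did not differ beyond its error. The Btg2 calls against WT rested on single libraries: the St2 KO call was lost without WT replicate 1 (adjusted p up to 0.111 over all alternatives) or St2 KO replicate 2, and the Alox5 KO call without any 1 of WT 1, WT 4 and Alox5 KO 1, 2 and 3 (adjusted p up to 0.7241). Both were lost in TS alone and with the 3 libraries of low plasma cell signal left out.

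In Il25 KO against St2 KO 2 of 42 rose (0.852% of all tested genes did) and 1 fell (0.392%). The median was 0.06, against -0.01 over all genes. Btg2 rose by 0.83 ± 0.098 (adjusted p 6.287e-05) and Tob2, another adaptor of the deadenylase, by 0.84 ± 0.190 (adjusted p 0.03122). Zc3h12c, another Regnase gene, went the other way from Zc3h12a: it was at 25.9 ± 3.46 CPM in Il25 KO and 59.3 ± 17.3 in St2 KO, or -1.14 ± 0.256 on the log2 scale (adjusted p 0.03122). Its level in WT was 56.8 ± 16.4 CPM. The Tob2 call was lost when any 1 of Il25 KO 2 and 3 and St2 KO 1, 2 and 4 was left out. It was also lost in the legacy mode, with no expression filter, in TS alone, with those genotypes fitted alone, and without the 3 libraries of low plasma cell signal or the 4 TY libraries, and so held in 16 of 27 alternatives (adjusted p up to 0.4192). The Zc3h12c call was lost without any 1 of replicates 2, 3 and 4 of either genotype, with no expression filter, in TS alone and without the 4 TY libraries (up to 0.6193). None of the 42 passed for Il25 KO against WT or Alox5 KO against St2 KO with edgeR (5 and 8 had an unadjusted p under 0.05, and DESeq2 called 1 and 0). For Alox5 KO against Il25 KO Btg2 alone passed, at -0.73 ± 0.120, and it did not pass without Alox5 KO replicate 1, in TS alone, with those genotypes fitted alone or with the 3 libraries of low plasma cell signal left out (adjusted p up to 0.825).

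Transcripts that textbooks name as targets of these families were read from a list of 34 genes, of which 27 were tested. TATTTAT was present in the 3′ untranslated region of 25 of the 34 (73.5%), against 30.5% of tested protein-coding genes and 27.6% of all. The list was chosen as known targets of these families, so this share describes the list and is not a test. Of the targets that passed with edgeR, Csf2 had 9 matches, Ptgs2 6, Pim1 4, Fos 2, Cd69 1, and Nfkbid and Nfkbiz 0. In St2 KO against WT 5 of 27 passed, all lower (0.187% of all tested genes did), and 24 were under 0. The median log2 fold change was -0.78, against 0.01 over all tested genes. In Il25 KO against St2 KO 7 passed, all higher (0.852% of genes), with a median of 0.72 against -0.01. In Alox5 KO against St2 KO 6 passed, all higher (0.307% of genes), with a median of 0.49. The 3 comparisons without St2 KO had no call among the 27 with edgeR or DESeq2, with 1, 7 and 4 genes at an unadjusted p under 0.05 for Alox5 KO against WT, Il25 KO against WT and Alox5 KO against Il25 KO. Every target that passed was lower in St2 KO, as Zfp36 was, in comparisons that share the St2 KO libraries.

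Csf2, which encodes the cytokine GM-CSF, was at 266.2 ± 13.2 CPM in WT, 256.9 ± 39.1 in Alox5 KO, 210.2 ± 25.2 in Il25 KO and 74.7 ± 16.3 in St2 KO. Its St2 KO libraries (50.9 to 86.2) lay under all others, and the log2 fold change against WT was -1.81 ± 0.179 (adjusted p 1.268e-05, edgeR). Ptgs2 was at 126.9 ± 26.3 CPM in WT and 7.52 ± 4.39 in St2 KO, which is -3.48 ± 0.567 on the log2 scale (adjusted p 0.007851). Nfkbid, which encodes the nuclear inhibitor IkBNS, fell from 381.7 ± 52.9 to 75.5 ± 24.8 CPM (-2.45 ± 0.224, adjusted p 4.616e-06), and Cd69, an early activation marker, from 299.6 ± 20.0 to 146.2 ± 64.4 (-1.16 ± 0.218, adjusted p 0.01992). The fifth was Nfkbiz (-0.95 ± 0.095, adjusted p 1.268e-05), named beyond the limit of 4 after its value was seen. Single libraries decided 2 of these calls: Ptgs2 did not pass when WT 1, St2 KO 1 or St2 KO 2 was left out (adjusted p up to 0.1641), nor Cd69 when WT 1, WT 2, St2 KO 1 or St2 KO 2 was (up to 0.1756). Both were also lost with the 3 libraries of low plasma cell signal left out. Those of Csf2, Nfkbid and Nfkbiz were kept under all 27 alternatives.

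In Il25 KO against St2 KO the 4 of largest change were Ptgs2 (4.09 ± 0.492), Nfkbid (2.81 ± 0.186), Pim1 (1.86 ± 0.276), a survival kinase, and Csf2 (1.54 ± 0.152). Alox5 KO against St2 KO had the same 4 at its top, at 3.21 ± 0.588, 2.62 ± 0.225, 1.65 ± 0.336 and 1.76 ± 0.182. In Alox5 KO against St2 KO, Pim1 was lost without any 1 of WT 1, 2 and 3, Alox5 KO 2 and each St2 KO library, in TS alone, with those genotypes fitted alone, and without the 3 libraries of low plasma cell signal or the 4 TY libraries (adjusted p up to 0.4649). In Il25 KO against St2 KO it was lost without the 4 TY libraries or in TS alone (up to 0.2067). In Alox5 KO against St2 KO, Ptgs2 was lost without Alox5 KO replicate 2 or any 1 of St2 KO replicates 1, 2 and 3, with no expression filter and with the 3 libraries of low plasma cell signal left out (adjusted p up to 0.4649). The classical ILC2 cytokine genes of the list did not pass: Il5 was at 75.3 ± 50.9 CPM in WT and 52.6 ± 37.1 in St2 KO, and Il13, whose locus carries the reporter in every mouse, at 10.6 ± 2.71 and 5.37 ± 4.03. Icos, a costimulatory receptor known as a target of both Roquin and Regnase-1, was 1 of the 3 genes above 0 in St2 KO against WT, at 0.40 ± 0.142 without passing (adjusted p 0.4675). These 3 genes were named after their values were seen.

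**Figure D4:**
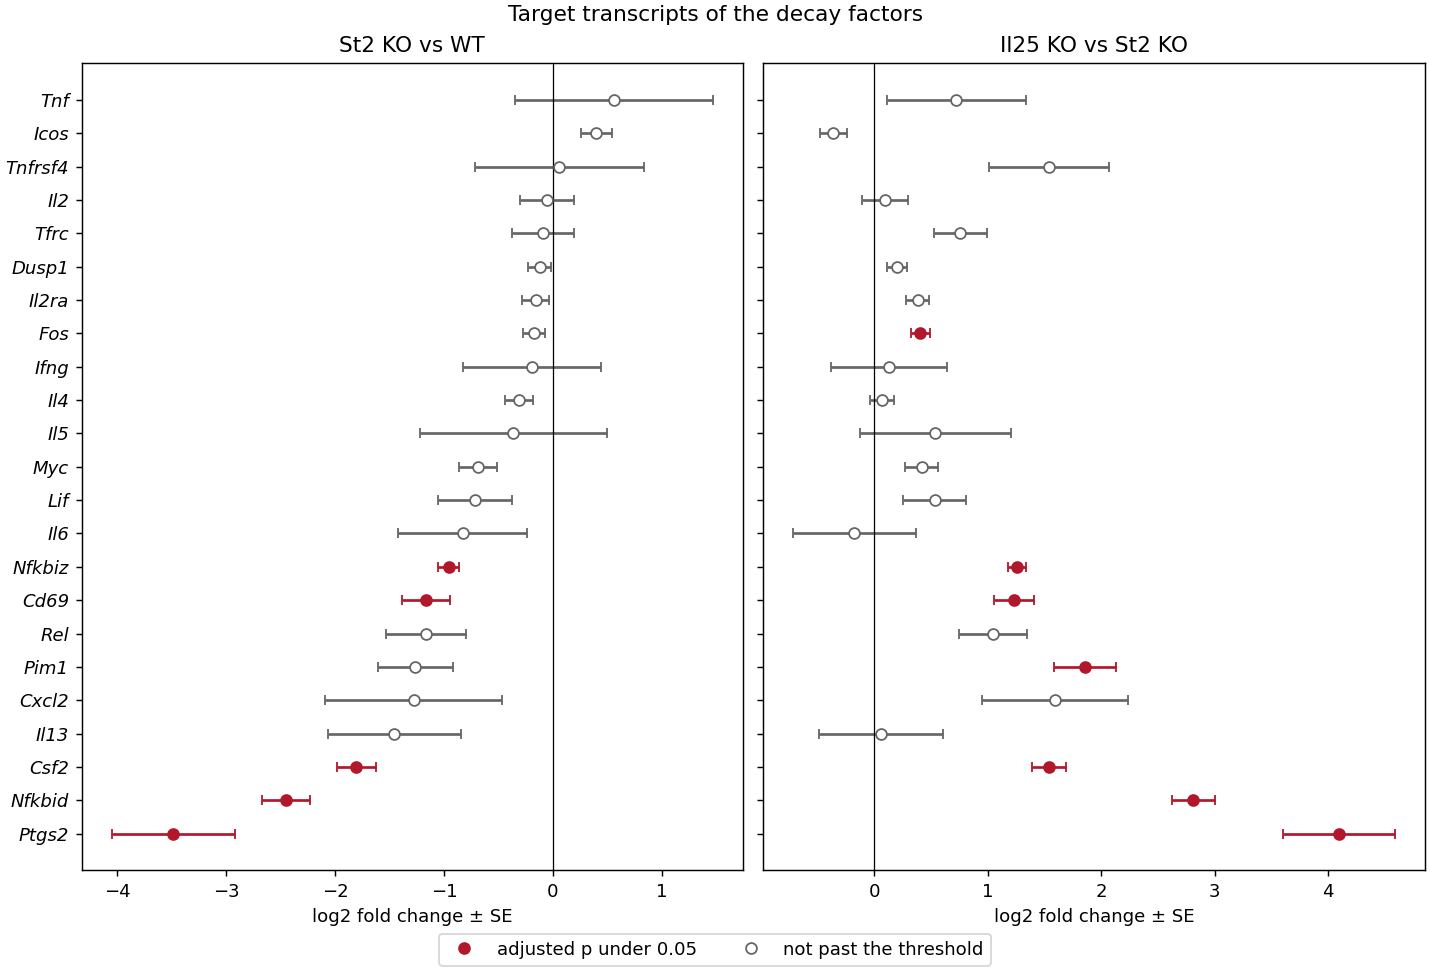
Log2 fold change with its SE for target transcripts in St2 KO against WT (left) and Il25 KO against St2 KO (right), for 23 of the 27 tested targets, those with an SE of at most 1. Filled red points have an adjusted p under 0.05. Ptgs2 lies at -3.48 on the left and 4.09 on the right, and no called point is above 0 on the left or under 0 on the right.

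Part of a list of 24 immediate early and dissociation genes moved with this pattern. Cells switch on immediate early genes within minutes of a stimulus and also during tissue digestion. The list also holds heat shock genes (Hspa1a, Hspa1b, Hsp90aa1 and Dnajb1). It held none of the 8 members and had counts for all 24. It shared Fos, Ier3 and Dusp1 with the targets and Btg2 with the machinery list. Its summed level was 5394 to 6118 CPM in the 4 St2 KO libraries, 7351 to 8350 in WT, 7548 to 8323 in Alox5 KO and 7889 to 9730 in Il25 KO. Of 23 tested, 5 passed as lower in St2 KO against WT (0.187% of all tested genes did), 12 as higher in Il25 KO against St2 KO (0.852%) and 6 as higher in Alox5 KO against St2 KO (0.307%). In St2 KO against WT 16 of the 23 were under 0 and 7 above. The median log2 fold change there was -0.23, against 0.01 over all tested genes. The part of this list in the differences of Zfp36, Zc3h12a and the targets was not tested. In the other 12 libraries the sum ran from 7351 to 9730 CPM and Zfp36 from 435.6 to 568.7.

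**Figure D5:**
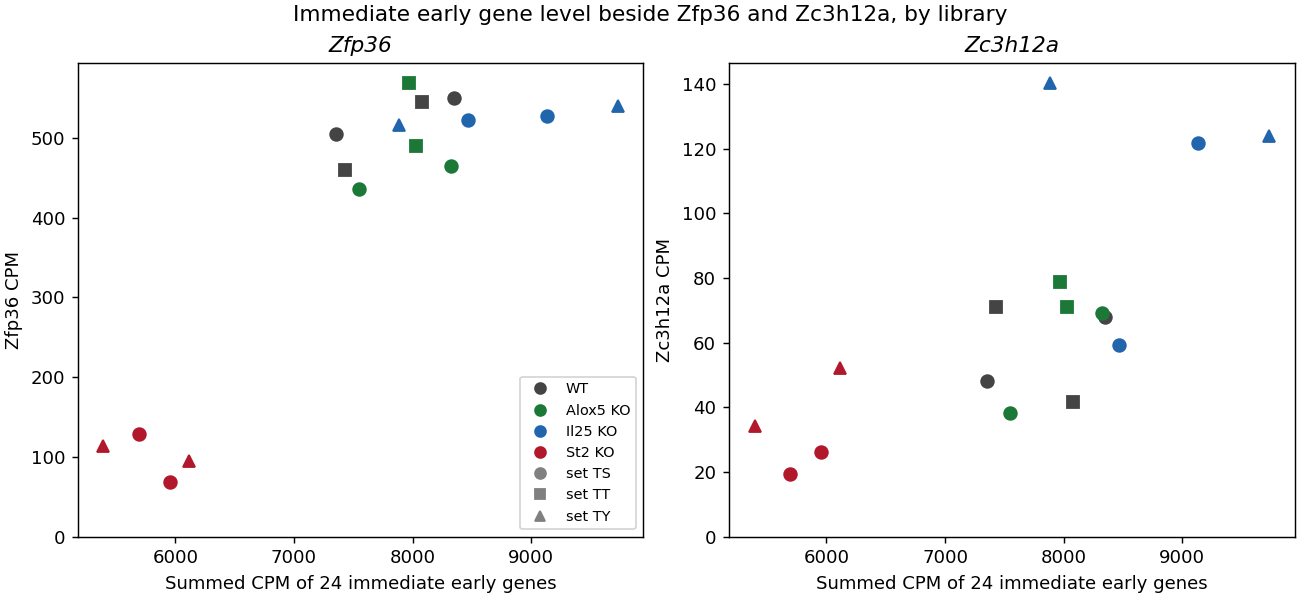
Zfp36 (left) and Zc3h12a (right) in CPM against the summed CPM of the 24 immediate early and dissociation genes. Each point is 1 library, coloured by genotype and shaped by sample-code set. The 4 St2 KO libraries lie lowest on the horizontal axis, at 5394 to 6118 CPM, and have Zfp36 at 68.8 to 129.0 CPM; the Zc3h12a values of WT and St2 KO overlap.

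Markers of other cells were read by the same sums. ILC2 markers summed to 7424 to 8465 CPM in St2 KO and 8638 to 9180 in WT, so they too were lower, without overlap, by a much smaller fold than Zfp36. That list includes Il1rl1, the gene targeted in St2 KO, and Arg1, which carries the reporter in St2 KO and not in WT. The part of these alleles in the sum was not tested. Macrophage and dendritic cell markers summed to 1.08 to 43.6 CPM over all libraries, and 7 of the 10 neutrophil, eosinophil and mast cell markers, S100a8 and S100a9 among them, had 0 counts in all. B and plasma cell markers summed to 1044 to 2408 CPM in St2 KO and 2681 to 3061 in WT, so every St2 KO library lay under every WT library. T cell markers summed to 494 to 566 CPM in St2 KO and 563 to 612 in WT. ILC1 and natural killer markers summed to 440 to 614 and 666 to 710, and epithelial markers to 15.9 to 38.2 and 25.1 to 60.5. ILC3 markers went the other way by their medians (81.6 CPM in St2 KO, 67.5 in WT), with ranges of 59.0 to 97.4 and 57.6 to 119.5. So did stromal and endothelial markers (medians 223.4 and 206.1), with ranges of 144.0 to 277.6 and 154.5 to 226.4. The part of these cells in the results was not tested. With the 3 libraries of low plasma cell signal left out, Zfp36 still passed in all 3 comparisons with St2 KO.

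The genes whose pattern over the 16 libraries was most like that of Zfp36 were Nfkbid, Csf2, Jun, Gadd45b and Ier5, with mean absolute differences in centred log2 CPM of 0.24, 0.30, 0.32, 0.37 and 0.39, against a median of 0.91 over 9127 candidate genes. Jun, Gadd45b and Ier5 belong to the list of 24 immediate early and dissociation genes. A low level in St2 KO was built into this choice, because the genes were picked for likeness to Zfp36 in these libraries. In all 5 genes the St2 KO libraries lay under the other 12, and the share of all genes that do so was not counted. Gadd45b, for example, was at 214.3 ± 21.1 CPM in St2 KO and 536.0 ± 39.7 in WT, and Jun at 83.9 ± 43.5 and 227.4 ± 40.5. For Zc3h12a the nearest were Csrnp1, Map3k14, Jund, Nr4a3 and Slc5a3, with differences of 0.30, 0.32, 0.32, 0.34 and 0.35 and a median of 0.67. Csrnp1, an immediate early gene, was at 111.2 ± 23.6 CPM in Il25 KO, between 45.5 and 83.8 in WT and 35.2 ± 17.2 in St2 KO, the same order of genotype means as Zc3h12a. The points share libraries and depth and the genes were picked by distance, so these values describe likeness in these 16 libraries and carry no test.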

How the data were processed

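The deposited table holds raw read counts per gene for 16 libraries. Per the submitters' processing notes, the tools included STAR 2.4.2a, HTSeq 0.4.1, Picard 1.134 and FastQC 0.11.3 with build GRCm38, so the authors counted aligned reads per gene. The strand setting and any removal of duplicates are not given in the sources used here, and the Nextera XT kit named in the labels' protocols does not mark strand. Of 53471 rows, 6 with a repeated identifier were dropped. Rows without a symbol (3433) hold 0.184% of the counts.

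Genotype and sample-code set were fitted over all 16 libraries (10 residual degrees of freedom) with edgeR 4.0.16 in R 4.3.3: TMM scaling, filterByExpr (11742 genes) and the robust quasi-likelihood test with Benjamini-Hochberg adjustment at 0.05. The errors beside log2 fold changes are SEs. The median SE over genes was 0.213 to 0.269 between comparisons, at library totals of 2086864 to 3216937 counts. Levels are counts scaled by column totals. The fit was also run on counts simulated with known changes and no differences between sets, so set effects were not part of that check.

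The members, lists and tests were chosen with earlier results of these data known. All 8 members are named, and of the machinery and target lists those past the threshold, at most 4 per direction and comparison by absolute change. The 5 genes most like Zfp36 or Zc3h12a had the smallest mean absolute difference in centred log2 CPM (prior count 2, mean of at least 3, established symbol). Alternatives were no set term, a replicate block, DESeq2 1.42.0, the legacy mode, no filter, other scalings, subsets of libraries and each library left out.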

Additional observations from a re-analysis of the deposited data

Results flagged for a closer look

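In Alox5 KO, Zc3h12d had 1 count in all 4 libraries together, in replicate 4 (0.479 CPM), and 0 in the other 3, which set that library apart from its group. It was the only one of 32 combinations of member and genotype in which the highest or lowest library stood apart this way. The usual chance rate of about 1 in 20 such groups does not hold here, because any group with a count in 1 library alone is marked. A single count is at the limit of detection.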

How the results depend on the processing

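Zfp36 passed in its 3 comparisons with St2 KO under all 27 alternatives, with log2 fold changes of -2.56 to -2.13 against WT, 2.26 to 2.59 for Il25 KO against St2 KO and 2.06 to 2.49 for Alox5 KO against St2 KO. Zc3h12a in Il25 KO against St2 KO ranged from 1.57 to 2.05 and passed in 26 of 27. Deviations of same-numbered replicates from their genotype means had correlations of -0.0788 to 0.197 (24 pairs, 3 over 0.1). Libraries of different numbers were not compared this way, so these values do not settle whether the numbers pair the samples. The replicate block left every count of members called as it was and moved the genes called for Alox5 KO against WT from 12 to 21. Counts of genes called are given in the order Alox5 KO against WT, Il25 KO against WT, St2 KO against WT, Il25 KO against St2 KO, Alox5 KO against St2 KO and Alox5 KO against Il25 KO, where they were 12, 49, 35, 146, 57 and 46. DESeq2 gave 53, 82, 67, 246, 100 and 105, with 3 members called for Alox5 KO against St2 KO. Without the set term Il25 KO against WT had 95, St2 KO against WT 58, Alox5 KO against St2 KO 122 and Alox5 KO against Il25 KO 81. The legacy mode gave 5 for Alox5 KO against WT. TS libraries alone gave 3, 9, 26, 33, 19 and 12, with 1 member called for Il25 KO against St2 KO. The genotypes compared alone gave 22, 9, 38, 96, 31 and 14. Without the 3 libraries of low plasma cell signal, a choice made with the data known, the counts were 3, 26, 21, 90, 11 and 2, and without the 4 TY libraries Il25 KO had 24 against WT, 49 against St2 KO and 21 against Alox5 KO. Leaving out 1 library gave 6 to 20, 31 to 53, 19 to 45, 80 to 168, 27 to 64 and 19 to 45, 1 to 2 members for Alox5 KO against St2 KO, and 0 to 2 and 0 to 3 genes for the differences between sets TS and TY and between TS and TT. Signs turned only for members that did not pass. Without the set term St2 KO against WT was 0.056 for Zfp36l1, 0.26 for Zfp36l2 and -0.053 for Rc3h2. Rc3h2 there was -0.082 in TS alone, -0.087 with the genotypes alone and -0.085 without the 3 libraries, and Zc3h12a in Alox5 KO against WT was -0.10 in TS alone. Without the 3 libraries Zfp36 was 0.10 for Alox5 KO against WT and 0.035 for Alox5 KO against Il25 KO. Leaving out 1 library gave -0.012 to 0.36 for Zc3h12a in Alox5 KO against WT, -0.0056 to 0.26 for Rc3h2 in St2 KO against WT, and -0.15 to 0.21 for Zfp36l2 in Il25 KO against St2 KO. For the difference between TS and TY it gave -0.25 to 0.86 for Zc3h12a and -0.28 to 0.59 for Zfp36. The causes were not tested, beyond fewer libraries in the subsets. Another scaling moved the median of all genes by at most 0.0428. Of 1349 fold changes under alternatives, 1253 kept direction and side of the threshold, 76 lost a call, 4 gained 1 and 16 turned. At these depths Zc3h12d could not be compared.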
